A study of Mus musculus with 6 samples.

Results

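The cartilage collagens examined here are the products of 8 genes, *Col2a1*, *Col9a1*, *Col9a2*, *Col9a3*, *Col10a1*, *Col11a1*, *Col11a2* and *Col27a1*, of 43346 genes in a table of RNA-seq counts from mouse adult fibroblasts (MAFs). They were taken by gene name, and the family was chosen by earlier results from these same libraries, the log2 fold changes of *Col2a1*, *Col9a1* and *Col11a1* between senescent and control cells. Their differences between the groups are therefore given as a description, without a test. MAFs are primary cells grown out of ear tissue, here from female adult C57BL6/J mice. There were 3 libraries from control cells, which were sham irradiated, and 3 from senescent cells, which received 20 Gy of x-rays and were cultured for a further 21 days. All cells were grown at 3% O2 between passages 3 and 8. Both groups were exposed to 100 nM dexamethasone, a glucocorticoid that sets the circadian clocks of cultured cells to a common phase, for 2 hours, and RNA was collected 12 hours later. Both groups were wild type, and the sources do not say whether the replicates came from separate animals or cultures, so p-values measure the spread between these samples, which may be technical.

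Collagens are triple helices of 3 chains. Type II collagen, a homotrimer of the *Col2a1* product, is the main fibrillar collagen of cartilage, including the elastic cartilage of the outer ear. Type XI collagen lies within its fibrils and limits their diameter, type IX collagen decorates their surface, type XXVII forms thin fibrils of its own, and type X is a short-chain collagen made by hypertrophic chondrocytes. Chondrocytes make these chains under the transcription factor Sox9, with Sox5 and Sox6 as partners.

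Upstream sequence is shown for the gene with the largest fall, *Col9a1*, the one with the smallest, *Col10a1*, and *Col11a2*, so that windows from both ends of the range can be read beside the values. Each window is the 250 bases before a RefSeq start site on the plus strand of GRCm38.p6, and 6 of the 8 genes, with 7 start sites, had an entry. *Col2a1* and *Col9a3* had none. Capitals mark matches to the TATA box sequence TATAAA, the only searched motif with a match. The windows lie at chr1:24177360-24177609 for *Col9a1*, chr10:34389731-34389980 for *Col10a1* and chr17:34038888-34039137 for *Col11a2*.

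Col9a1: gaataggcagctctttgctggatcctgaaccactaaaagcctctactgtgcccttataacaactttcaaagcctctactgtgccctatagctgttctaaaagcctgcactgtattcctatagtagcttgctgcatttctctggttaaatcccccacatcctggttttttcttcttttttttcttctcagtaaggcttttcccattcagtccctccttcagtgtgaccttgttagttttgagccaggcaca

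Col10a1: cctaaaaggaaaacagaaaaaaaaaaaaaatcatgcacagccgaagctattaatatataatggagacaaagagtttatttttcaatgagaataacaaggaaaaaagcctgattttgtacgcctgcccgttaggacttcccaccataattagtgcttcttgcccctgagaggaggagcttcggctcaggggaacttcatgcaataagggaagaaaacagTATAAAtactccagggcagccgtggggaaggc

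Col11a2: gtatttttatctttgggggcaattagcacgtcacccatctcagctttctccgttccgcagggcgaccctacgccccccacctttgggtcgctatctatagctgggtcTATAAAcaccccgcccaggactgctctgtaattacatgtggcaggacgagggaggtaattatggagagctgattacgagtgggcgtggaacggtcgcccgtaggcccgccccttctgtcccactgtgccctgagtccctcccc

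The sequence TATAAA began 32 bases before the start site of *Col10a1* and 143 bases before that of *Col11a2*, and 12.4% of 32851 windows of this length held it. Whether either match acts as a TATA box was not tested. The circadian E-box CACGTG, which BMAL1 binds (6.02% of windows), the AP-1 sites TGACTCA and TGAGTCA (4.46%) and the SOX sites ACAATGG and ACAAAGG (7.92%), each searched on both strands, were in none of the 7 windows. Sequence outside these windows was not searched. By BMAL1 chromatin immunoprecipitation, the authors of the study reported less binding in senescent cells at genes that include *Col2a1*, *Col9a1* and *Col11a1*. GC content was 41.6% for *Col10a1* and 43.6% for the *Col9a1* start shown here, against 56.0% for the other *Col9a1* start and 57.6% to 62.4% for the remaining windows.

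Libraries held between 50288454 and 82229553 counts, and 3 counts, taken as the limit of detection, correspond to between 0.0355 and 0.0613 CPM (counts-per-million). This limit covers counting error alone. All 8 genes lay far above it and were among the 17589 genes that passed the filter on low counts. CPM values are scaled by TMM, which corrects for differences in composition between libraries. Senescent replicate 3 stood apart. Its median squared difference over genes from the other senescent replicates was 12.7 and 16.3 times that of counting noise, against 2.14 times between senescent replicates 1 and 2 and between 1.75 and 4.63 times among control libraries.

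All 8 genes were lower in senescent cells, and in none did the groups overlap. Of these, 7 had an adjusted p under 0.05 and a log2 fold change under -1 in edgeR's quasi-likelihood test. Nothing is read from these counts, since the genes were selected on this contrast. Among all genes tested, 12.3% were called lower, 17.7% were called higher and 75.3% had groups that did not overlap. The median log2 fold change was -3.86 over the 8 genes and 0.01 over all genes tested. In these bulk samples, fewer cells that make cartilage collagens and less RNA per cell cannot be told apart.

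**Figure D1:**
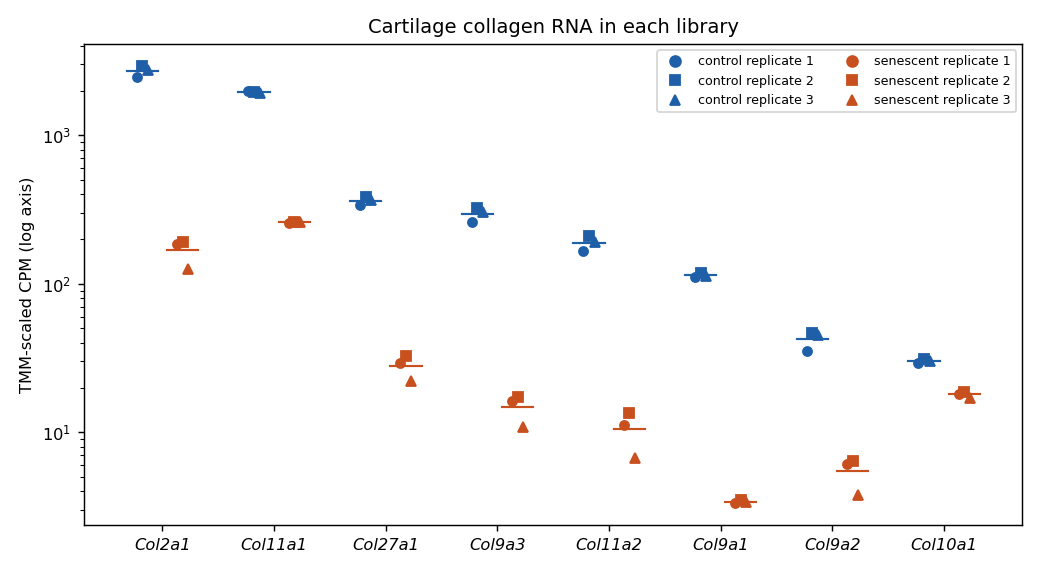
TMM-scaled CPM (log axis) of each gene in the 3 control libraries (blue) and the 3 senescent libraries (orange), with a marker shape for each replicate number and a line at each group mean. Every senescent value lies below every control value of the same gene, and senescent replicate 3 (triangles) is the lowest senescent value for 6 of the 8 genes.

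*Col2a1* (ENSMUSG00000022483, mm10 chromosome 15 from 97975602 to 98004695) encodes the chain of type II collagen. It was at 2449, 2932 and 2769 CPM in the control libraries and at 186, 192 and 125 CPM in the senescent libraries. The lowest control value was still far above the highest senescent value, and senescent replicate 3 was the lowest. The means were 2717 ± 246 and 168 ± 37.3 CPM (SD, n = 3 per group), a 16.2-fold difference (log2 fold change -4.02, SE 0.18). By CPM the gene ranked 20 among the tested genes in control cells and 1067 in senescent cells. Its reads made up between 0.240% and 0.284% of all counts in control libraries, and between 0.0128% and 0.0197% in senescent libraries.

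*Col11a1* (ENSMUSG00000027966, chromosome 3 from 114030540 to 114220718) encodes a chain of type XI collagen. It was at 1985, 1961 and 1911 CPM in control libraries and at 257, 261 and 259 CPM in senescent libraries. Its replicates were the closest of the family, with a coefficient of variation of 0.815% among senescent libraries. The difference was 7.53-fold, with a log2 fold change of -2.91 (SE 0.05).

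*Col11a2* (ENSMUSG00000024330, chromosome 17 from 34039437 to 34066685) encodes another type XI chain. It was at 166, 209 and 192 CPM in control libraries and at 11.3, 13.4 and 6.73 CPM in senescent libraries. Senescent replicate 3 was at 0.545 of the mean of the other senescent replicates, the widest gap in the family. The log2 fold change was -4.18 (SE 0.25), or 18.1-fold. Taken against senescent replicates 1 and 2 the difference was 15.3-fold, and against senescent replicate 3 it was 28.1-fold.

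*Col27a1* (ENSMUSG00000045672, chromosome 4 from 63214004 to 63334991) encodes type XXVII collagen, a fibrillar collagen of cartilage. Control libraries held 338, 385 and 365 CPM and senescent libraries 29.1, 32.7 and 22.0 CPM. The groups were separated by more than their spread, with a log2 fold change of -3.70 (SE 0.15) and a 13.0-fold difference. The microRNA gene *Mir455* lies within it on the same strand.

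The type IX genes encode the chains of one heterotrimer, and they did not fall to the same extent. *Col9a1* (ENSMUSG00000026147, chromosome 1 from 24177610 to 24252684) was at 112, 118 and 113 CPM in control libraries and at 3.34, 3.48 and 3.40 CPM in senescent libraries. It had the largest fall of the family, 33.5-fold, with a log2 fold change of -5.06 (SE 0.07). Of the genes tested, 51 had a lower log2 fold change.

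*Col9a2* (ENSMUSG00000028626, chromosome 4 from 121039385 to 121055322) was at 35.5, 46.7 and 45.0 CPM in control libraries and at 6.12, 6.45 and 3.78 CPM in senescent libraries. Control replicate 1 and senescent replicate 3 were the low libraries of their groups. The fall was 7.81-fold, with a log2 fold change of -2.97 (SE 0.21), the smallest of the type IX chains. *Col9a3* (ENSMUSG00000027570, chromosome 2 from 180597790 to 180622189) was at 259.9, 324 and 302 CPM in control libraries and at 16.2, 17.3 and 10.9 CPM in senescent libraries. Its log2 fold change was -4.32 (SE 0.19), or 20.0-fold. Of its 3853 exon bases, 234 overlap *Tcfl5* on the other strand. *Tcfl5* went from 7.97 to 10.7 CPM, the opposite direction.

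*Col10a1* (ENSMUSG00000039462, chromosome 10 from 34389981 to 34397085) encodes type X collagen of the hypertrophic zone. It was at 29.2, 30.9 and 30.4 CPM in control libraries and at 18.2, 18.6 and 17.1 CPM in senescent libraries. These groups did not overlap, yet the difference was 1.68-fold, with a log2 fold change of -0.75 (SE 0.07), short of the limit of 1 used for calls. The gene lies wholly within *Nt5dc1*, which is transcribed from the opposite strand, and shares 18 exon bases with it. *Nt5dc1* had 14.1 ± 0.832 CPM in control cells against 18.4 ± 2.83 CPM after irradiation. The strand setting used for counting is not given in the sources used here, and the part of *Nt5dc1* reads in the *Col10a1* values was not tested.

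Levels were compared between genes as CPM per kilobase of the gene length deposited with the counts. In control cells *Col2a1* was first at 453 ± 41.0, followed by *Col11a1* at 202 ± 3.95 and *Col9a3* at 76.7 ± 8.50 (SD, n = 3). *Col27a1* at 27.9 ± 1.83 and *Col11a2* at 27.7 ± 3.20 did not differ beyond their spread. *Col9a1* at 22.5 ± 0.688, *Col9a2* at 13.7 ± 1.96 and *Col10a1* at 9.65 ± 0.280 followed, each with values that did not overlap with its neighbour.

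The order was different in senescent cells. As scaled by TMM, *Col2a1* at 28.0 ± 6.22 and *Col11a1* at 26.8 ± 0.219 no longer differed beyond their spread. *Col2a1* was at 31.0 and 32.1 in senescent replicates 1 and 2 and at 20.8 in senescent replicate 3. The mean of *Col2a1* over *Col11a1* in senescent cells was 1.18 with GC content fitted per library, as described below. It was 0.893 with exon lengths from GENCODE vM21. *Col10a1*, the last in control cells, came next at 5.75 ± 0.250, ahead of *Col9a3* at 3.84 ± 0.890. The values of *Col27a1* (2.15 ± 0.418), *Col9a2* (1.76 ± 0.470) and *Col11a2* (1.53 ± 0.499) overlapped between libraries. Within each senescent library, *Col27a1* was above *Col9a2* and *Col9a2* above *Col11a2*. *Col9a1* was the lowest at 0.672 ± 0.0144.

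The summed level of the family was 833 ± 55.5 CPM per kilobase in control cells and 70.5 ± 8.77 in senescent cells. Of this sum, *Col2a1* accounted for 54.3% ± 1.38 in control cells and 39.3% ± 4.26 in senescent cells, while *Col11a1* accounted for 24.4% ± 1.93 and 38.5% ± 5.08. The share of *Col10a1* was 1.16% ± 0.0444 in control and 8.21% ± 0.718 in senescent cells. That of *Col27a1* was 3.34% ± 0.00806 and 3.03% ± 0.238. Together the 8 genes held 0.555% ± 0.0278 of all counts in control libraries and 0.0521% ± 0.00533 in senescent libraries.

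**Figure D2:**
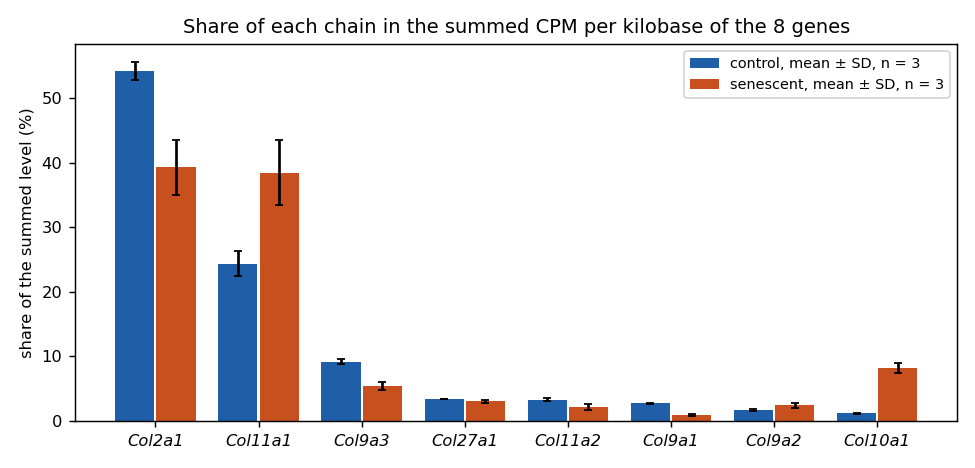
Share of each gene (percent, bars from 0 with mean ± SD over 3 libraries) in the summed CPM per kilobase of the 8 genes, in control (blue) and senescent (orange) cells. *Col2a1* has the tallest bar in control cells at 54.3%, and in senescent cells the bars of *Col2a1* and *Col11a1* stand at 39.3% and 38.5%.

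Ratios between chains were computed within each library, where scaling cancels. *Col9a1* over *Col9a2* was 1.92, 1.54 and 1.53 in control libraries and 0.333, 0.330 and 0.549 in senescent libraries. *Col9a1* was thus the higher of the pair in every control library and the lower in every senescent library. *Col9a3* over *Col9a1* was 3.40 ± 0.295 in control and 5.71 ± 1.30 in senescent cells, and *Col9a3* over *Col9a2* was 5.62 ± 0.248 and 2.20 ± 0.0997.

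For type XI, *Col11a1* over *Col11a2* was 8.48, 6.64 and 7.04 in control libraries and 16.1, 13.8 and 27.2 in senescent libraries. All senescent ratios were above the control ratios, and senescent replicate 3 was far above its own group. The mean was 19.1 in senescent cells. With GC content fitted per library, as described below, it was 8.51 in control and 15.8 in senescent cells. *Col2a1* over *Col11a1* was 1.99, 2.41 and 2.33 in control libraries and 1.16, 1.19 and 0.776 in senescent libraries. The groups did not overlap, and in senescent replicate 3 alone *Col11a1* was the higher. With GC content fitted, the mean of *Col2a1* over *Col11a1* was 1.94 in control and 1.18 in senescent cells, against 2.24 and 1.04. With exon lengths from GENCODE vM21, 9243 against 6001 bases for *Col2a1* and 12744 against 9657 for *Col11a1*, this ratio was 1.92 in control and 0.893 in senescent cells, so the order of the pair in senescent cells depends on the length used.

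**Figure D3:**
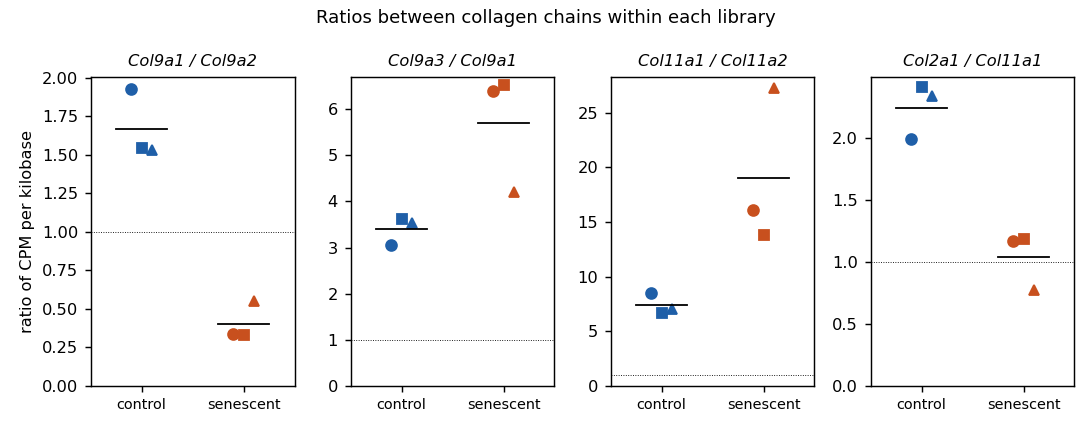
Ratios of CPM per kilobase between pairs of chains in each control (blue) and senescent (orange) library, on linear axes from 0, with a line at each mean and a dotted line at 1. *Col9a1* over *Col9a2* is above 1 in all control libraries and below 1 in all senescent libraries, and *Col11a1* over *Col11a2* reaches 27.2 in senescent replicate 3.

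The replicates of the family fell into sets that followed GC content, the share of G and C bases in the transcript. In the 5 genes with a GC content of 59.2% to 62.9% (*Col2a1*, *Col9a2*, *Col9a3*, *Col11a2* and *Col27a1*), senescent replicate 3 was at 0.545 to 0.712 of the mean of senescent replicates 1 and 2. In the 3 genes with 48.0% to 52.2% (*Col9a1*, *Col10a1* and *Col11a1*), it was at 0.929 to 0.999. Control replicate 1 was at 0.773 to 0.901 of the mean of the other control replicates in the first set and at 0.953 to 1.03 in the second.

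When GC content was fitted per library, an alternative chosen after seeing the data, senescent replicate 3 stood at 0.854 to 1.08 of the other senescent replicates over the 8 genes. *Col2a1* was then at 184, 177 and 182 CPM in senescent libraries, with a log2 fold change of -3.77 (SE 0.03). *Col11a2* moved to -3.93 (SE 0.07) and *Col9a2* to -2.71 (SE 0.06), while *Col11a1* moved the other way, to -3.05 (SE 0.03). *Col9a1* kept the largest fall, at -5.09, and *Col10a1* the smallest, at -0.82. Other properties of senescent replicate 3 were not tested.

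**Figure D4:**
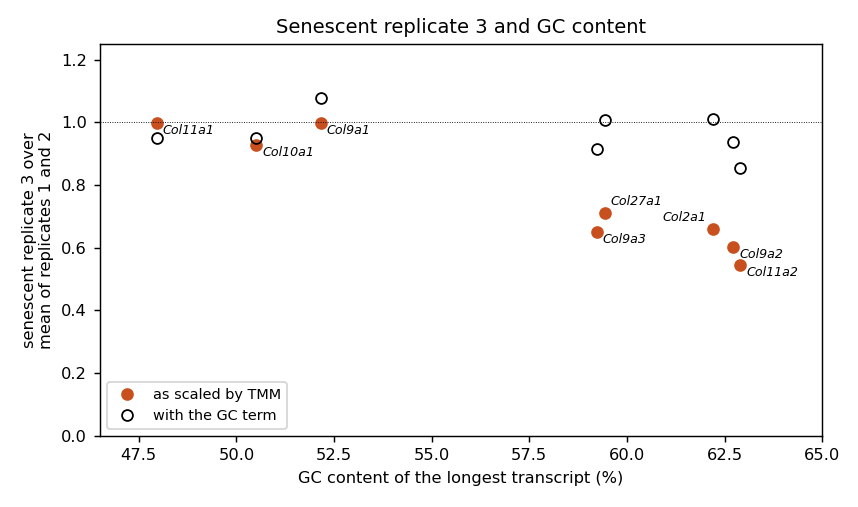
Value in senescent replicate 3 divided by the mean of senescent replicates 1 and 2 for each gene, against the GC content of its longest transcript in percent, as scaled by TMM (filled) and with the GC term (open). The filled points of the 5 genes with 59.2% to 62.9% GC lie between 0.545 and 0.712, and all open points lie between 0.854 and 1.08.

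Profiles across the 6 libraries were compared with that of *Col2a1* by Euclidean distance, as log2(CPM + 0.5) minus the control mean. This covered 12958 genes whose mean count reached 100. The nearest genes outside the family were *Espl1* at a distance of 0.20, *Uhrf1* at 0.29, *Pkmyt1* at 0.30, *Mcm5* at 0.34 and *E2f7* at 0.36. Their log2 fold changes were between -4.44 and -4.04. Since only the control mean was taken out, the distance depends largely on the difference between the groups, on which the family was chosen. Within the family, *Col11a2* was the nearest to *Col2a1* at 0.31, followed by *Col9a3* at 0.45 and *Col27a1* at 0.61. *Col9a1* was at 1.54, *Col9a2* and *Col11a1* were both at 2.02, and *Col10a1* was the farthest at 5.74.

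Other genes of cartilage fell beside the collagens. Of 17 tested chondrocyte regulators and matrix genes, 16 were called lower and 1 higher, with a median log2 fold change of -2.72. The shares over all genes tested were 12.3% lower and 17.7% higher. *Sox9*, the master regulator of chondrocytes, went from 215 ± 12.6 to 50.9 ± 4.11 CPM (log2 fold change -2.08, SE 0.08, adjusted p = 2.84e-07 in edgeR's quasi-likelihood test). *Sox5* and *Sox6* fell by 2.14 and 2.16 on the log2 scale. *Acan*, the core protein of aggrecan, went from 1854 ± 40.6 to 131 ± 3.02 CPM, a log2 fold change of -3.82 that was close to that of *Col2a1*. *Hapln1*, the link protein of aggrecan, fell by 2.81, and the matrilins *Matn3* and *Matn4* fell by 5.24 and 1.36. *Comp*, which binds collagen fibrils, fell by 1.18, and its call was lost without senescent replicate 3 (-0.99) and with the GC term (-0.998). *Matn1* had at most 10 counts in a library and was not tested. The summed level of this list was between 3022 and 3090 CPM in control libraries and between 310 and 326 CPM in senescent libraries, the 17 tested genes had at least 5 counts in every control library, and its part in the fall of the collagens was not tested.

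Genes of the hypertrophic zone, where *Col10a1* is made, were called in both directions. Of 9 tested, 2 were called lower and 2 higher, with a median of -0.14, beside 12.3% and 17.7% over all genes tested, and nothing particular to the list is read from these counts. *Runx2*, a regulator of hypertrophy, had a log2 fold change of -0.27 and was not called. *Mmp13*, the collagenase that cleaves type II collagen, rose from 0.134 to 16.4 CPM (log2 fold change 6.93, adjusted p = 1.05e-07, same edgeR test). It had at most 9 counts in a control library, so the size of this change is uncertain. Among 7 tested genes for the breakdown of fibrillar collagen, which include *Mmp13*, 3 were called higher and none lower. These counts stand beside the same shares over all genes tested, and nothing particular to the list is read from them.

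Of 7 tested fibrillar collagens of skin and other connective tissue, 5 were called lower and 1 higher, with a median log2 fold change of -1.57. Over all genes tested, 12.3% were called lower and 17.7% higher. The median of the cartilage collagens is not compared with this, since they were chosen on the same contrast. *Col1a1* and *Col1a2*, the chains of type I collagen, fell by 2.54 and 1.87, *Col3a1* by 2.00 and *Col5a1* by 1.57. *Col5a2*, whose chain can also join type XI trimers, fell by 1.03 and lost its call without senescent replicate 3 (-0.95). *Col24a1* rose by 1.18 from 0.205 CPM. Of 7 tested FACIT and short-chain collagens outside the family, 2 were called in each direction, and nothing particular to this list is read from these counts.

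Of 21 genes for the folding and modification of collagen chains, 10 were called lower and none higher, beside 12.3% and 17.7% over all genes tested. *Serpinh1*, the collagen chaperone HSP47, fell by 1.67 and the prolyl 3-hydroxylase *P3h1* by 1.14, while *P4ha1* (-0.33) and *Plod2* (-0.69) were not called. Of 13 genes for processing and crosslinking, 3 were called lower and 1 higher, and *Loxl2* at -0.67 was not called. Among 7 collagen receptors, 3 were called lower and 1 higher. Nothing particular to the processing and receptor lists is read from their counts. *Itga10*, whose integrin binds type II collagen, fell by 2.07, *Ddr1* by 1.88 and *Itga1* by 1.18. *Itga2* rose by 3.48, the largest change of this list, while *Ddr2* (0.73) and *Itga11* (0.46) were not called.

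**Figure D5:**
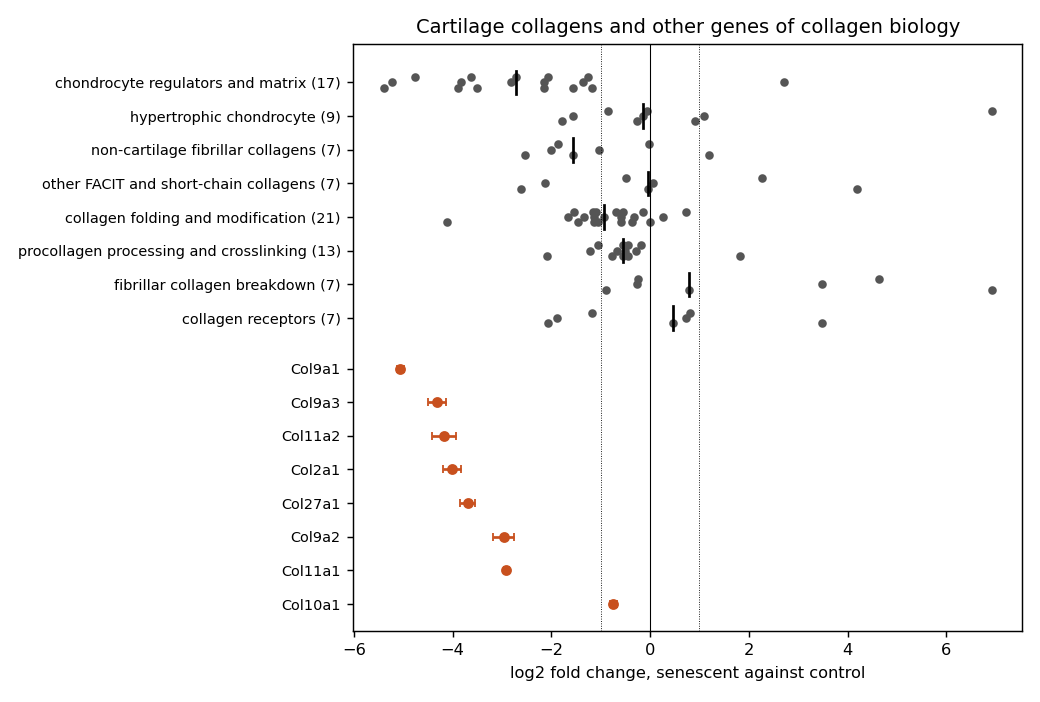
Log2 fold change of senescent against control cells for the 8 cartilage collagens (orange, with standard errors) and for every tested gene of the other lists (grey, with a black line at the median and the number tested in brackets). Dotted lines mark -1 and 1. The collagens run from -5.06 for *Col9a1* to -0.75 for *Col10a1*, and the chondrocyte list has a median of -2.72.

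The label of the cells was checked against markers. All 9 fibroblast markers were detected, with a summed level of 14070 to 15940 CPM in control and 5860 to 6998 CPM in senescent libraries, and 2 were called in each direction. Those called lower were *Col1a1* (4435 to 763 CPM) and *Col1a2* (5612 to 1531 CPM), the highest of this list in control cells. Both are also in the list of fibrillar collagens above. Those called higher were *Thy1* (107 to 298 CPM) and *Dcn* (56.6 to 643 CPM). The list of chondrocyte regulators and matrix genes described above stood at 3022 to 3090 CPM in control libraries, and each of the lists that follow at 20.8 CPM or less. Macrophage markers were between 5.57 and 6.01 CPM in control and between 9.22 and 10.9 CPM in senescent libraries, endothelial markers between 2.43 and 2.83 and between 7.38 and 8.08, keratinocyte markers at most 16.7 and between 33.6 and 34.4, and skeletal muscle markers between 15.1 and 20.8 and between 14.5 and 26.9. Schwann cell and melanocyte markers were between 4.10 and 4.43 in control and between 3.13 and 3.74 in senescent libraries. Several of these markers rose while the collagens fell. Of 6 tested keratinocyte markers, 3 were called higher and 1 lower. *Krt15* and *Dsp* had log2 fold changes of 5.99 and 6.02. Each had at most 8 counts in a control library, so the size of these changes is uncertain. *Ivl* had 0 counts in control libraries and between 741 and 1222 in senescent libraries. *Trp63*, the highest of this list in control cells at 13.15 CPM, fell by 1.65. *Krt5* (0.58) and *Krt10* (-0.007) were not called, and *Krt1* and *Krt14* did not pass the filter on low counts. Of 4 endothelial markers, 3 were called higher, with *Kdr* at 3.81, as were 1 of 3 macrophage markers and 1 of 2 muscle markers, and 1 of 3 Schwann cell and melanocyte markers was called lower. *Myod1*, *Myh3*, *Sox10* and *Tyr* had 0 counts in control libraries, and *Dct* had 0 in senescent libraries. Beside 12.3% called lower and 17.7% called higher over all genes tested, nothing is read from the counts for these short marker lists. The part of these cell types in the collagen values was not tested.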

How the data were processed

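Polyadenylated RNA of control and senescent MAFs was sequenced from stranded libraries in triplicate. The authors ran MAPRSeq, in which STAR aligned the read pairs to mm10 and Subread assigned them to genes. They deposited raw counts per gene with a length and coordinates. Settings for strand and for reads with several matches are not given in the sources used here.

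These deposited counts were filtered by filterByExpr and scaled by TMM in edgeR 4.0.16 under R 4.3.3. Groups were tested with its robust, two-sided quasi-likelihood test, using group alone. Benjamini-Hochberg adjustment covered all tested genes, and a gene was called when its log2 fold change exceeded 1 in size at an adjusted p under 0.05. An exact permutation test of 3 against 3 libraries cannot go below 0.1. GC content, exons and overlaps came from GENCODE vM21, whose coordinates for the 8 genes equalled those deposited. The GC term was a curve with 5 degrees of freedom per library. Promoters came from RefSeq. The fit was tested on simulated data.

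The members and lists were chosen with earlier results of these data known. Genes outside the family were named by role, with the 5 profiles nearest to *Col2a1* added. *Tcfl5*, *Nt5dc1*, *Itga1*, *Itga2* and single markers of fibroblasts and other cell types were named after their values had been seen. *Mmp13*, *Pth1r*, *Col1a1* and *Col1a2* stand in 2 lists each. Alternatives were RLE scaling, library size alone, other filters, DESeq2 1.42.0, other limits, a replicate block and each library left out. GC content and GENCODE length were added later, with the data already seen.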

Additional observations from a re-analysis of the deposited data

How the results depend on the processing

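Each of the 8 cartilage collagens stayed lower in senescent cells under the 15 alternatives run for it. Of these, unadjusted p and any fold change altered only the rule for calls, so they could not alter a fold change. The fold changes ranged from -4.12 to -3.77 for *Col2a1*, from -5.09 to -4.99 for *Col9a1*, from -3.11 to -2.71 for *Col9a2*, from -4.45 to -4.13 for *Col9a3*, from -0.82 to -0.67 for *Col10a1*, from -3.05 to -2.84 for *Col11a1*, from -4.40 to -3.92 for *Col11a2* and from -3.82 to -3.52 for *Col27a1* on the log2 scale.

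Across all genes, 5280 were called. At least 10 counts in every library left 3479, with 1757 lower and 1722 higher against 2159 and 3121 as reported, and any fold change gave 12365. Leaving out 1 library at a time gave between 5256 and 5708. Of the genes in the lists of collagen biology, 50 were called, between 48 and 51 with 1 library left out, and 77 with any fold change. *Col5a2* also lost its call when scaled by library size alone (-0.95) and with at least 10 counts in every library (-0.98). Deviations from the group means had correlations of -0.37, 0.29 and -0.26 between samples with the same replicate number. These values cannot tell whether such samples share an animal or culture. With a replicate block 5280 genes and 50 list genes were called. The 7 cartilage collagens called with this block are not read as a result, since the family was chosen on this contrast.

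The GC term and the GENCODE lengths moved ratios between chains. *Col11a1* over *Col11a2* in control cells was 8.51 and 5.63, against 7.38 as reported, and *Col10a1* over *Col2a1* in senescent cells was 0.326 with the GENCODE lengths against 0.212. With 3 libraries per group and no stated source of the replicates, the spread given here may be smaller than that between animals.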
